A study of Mus musculus with 8 samples.

Results

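Ucp1, the uncoupling protein gene that defines brown fat, and 9 other genes of fat cells were followed in RNA from whole mouse kidney. The 10 genes were taken as a named set: Ucp1 and Cidea as genes enriched in brown fat, and Adipoq, Plin1, Cidec, Cfd, Fabp4, Retn, Lep and Car3 as genes of adipose tissue in general. They were found on the arrays by the accession each probe carries, which gave 12 probes for the 10 genes out of 27223 probes named with 1 gene for 20657 genes. Ucp1 was selected on its difference in processed intensity between the groups on these same 8 arrays, and the other 9 were chosen with their intensities known. All differences between groups in these 10 genes are therefore given as descriptions, without a test.

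The 8 kidneys came from mice labelled male and 12 weeks old, and no genotype or strain is given in the labels. The 4 control mice ate standard chow, and the 4 cinacalcet mice received cinacalcet HCl at 1 mg per g of body weight for 5 days. Cinacalcet is a calcimimetic, a drug that makes the calcium-sensing receptor respond to less calcium. Total RNA of snap-frozen whole kidney was labelled with Cy3 and read on Agilent 8 x 60K mouse arrays, 1 array per sample, all on 1 slide. The labels do not say whether fat at the hilum or around the capsule was removed, nor that each sample is a separate animal, so the p-values given for other genes measure only the spread between these samples.

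Brown fat burns fuel to make heat. Its mitochondria hold UCP1, a carrier in the inner membrane that lets protons flow back without making ATP, and the sympathetic nervous system drives its gene through beta-adrenergic receptors, cyclic AMP and PGC-1alpha. White adipocytes store fat in a large droplet coated with perilipin and release hormones such as adiponectin and leptin. The fat around the mouse kidney contains brown adipocytes, most of all near the hilum, so a whole kidney can carry both kinds. In bulk RNA, fewer cells of a type and less RNA per cell cannot be told apart.

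A level is the log2 of a probe's processed intensity minus the 75th percentile of its array on the same scale, so 0 is the intensity of the spot at that percentile. Levels of different probes are not compared. Between 51.8% and 58.0% of spots were well above background, and no spot was saturated. The lowest level among probes well above background was between -4.99 and -4.21 on the 8 arrays and is called the detection floor. The kidney markers were above background for 10 of 10 genes, among them the tubule genes Umod, Slc34a1 and Aqp2, and none of the 10 passed the limma test between the groups, with 1 at an unadjusted p under 0.05. That was Cdh16, a cadherin of tubules, at -0.24 (adjusted p = 0.0662, limma), followed by the water channel gene Aqp2 at 0.44 (adjusted p = 0.179, limma). The largest difference in the list was that of Kap, at -1.19 (adjusted p = 0.201, limma). Its level was 8.09 on cinacalcet 2 and 8.45 on cinacalcet 3, against 10.2 to 10.7 on the other arrays, control 4 among them. Signal from Y-linked genes was absent on control 4, cinacalcet 2 and cinacalcet 3, where Xist stood at 0.95, 0.46 and 0.73 against -6.99 to -4.22 on the other 5 arrays. These 3 arrays go against their label of male mice, so the differences of Ucp1, Cidea and the general adipose mean are also given within each of these sets of arrays.

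Promoters of 3 genes are shown because they belong to the genes whose contrast carries the result: Ucp1, which separated the groups, and Adipoq and Plin1, which did not. Each runs 5′ to 3′ from 250 bases before to 50 bases after the start of the gene in RefSeq on build GRCm38.p6. Such windows were obtained for 7 of the 10 genes and not for Cidea, Fabp4 and Car3. This does not show that RefSeq lacks those 3 genes. Capitals mark a match to AGGTCA, a half-site of the fat cell regulator PPARgamma, or to TTGCNNAA, a core of sites for C/EBP factors, on either strand. The windows lie at chr8:83290098-83290397 on the + strand for Ucp1, chr16:23146286-23146585 on the + strand for Adipoq and chr7:79732727-79733026 on the - strand for Plin1.
Ucp1: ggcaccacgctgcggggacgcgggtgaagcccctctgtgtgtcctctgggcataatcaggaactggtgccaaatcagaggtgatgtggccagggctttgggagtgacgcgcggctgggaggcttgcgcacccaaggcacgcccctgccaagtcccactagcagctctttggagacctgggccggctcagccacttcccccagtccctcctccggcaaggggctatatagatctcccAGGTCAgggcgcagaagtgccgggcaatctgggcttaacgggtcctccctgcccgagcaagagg
Adipoq: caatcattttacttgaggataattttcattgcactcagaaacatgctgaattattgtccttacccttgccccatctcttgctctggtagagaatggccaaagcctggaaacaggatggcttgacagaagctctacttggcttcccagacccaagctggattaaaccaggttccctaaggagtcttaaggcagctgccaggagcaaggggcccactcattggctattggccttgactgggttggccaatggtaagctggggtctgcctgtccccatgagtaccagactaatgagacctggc
Plin1: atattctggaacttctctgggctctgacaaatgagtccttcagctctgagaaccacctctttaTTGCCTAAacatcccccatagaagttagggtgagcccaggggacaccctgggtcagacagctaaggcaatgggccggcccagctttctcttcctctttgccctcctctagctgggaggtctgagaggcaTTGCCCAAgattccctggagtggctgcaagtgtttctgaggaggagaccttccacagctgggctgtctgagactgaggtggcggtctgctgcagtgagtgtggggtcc
The Ucp1 window held 1 AGGTCA, the Plin1 window held 2 matches to TTGCNNAA, and the Adipoq window held neither. AGGTCA occurs in 16.3% and TTGCNNAA in 10.8% of 32851 promoter windows of 300 bases, so such matches are common, and a match is a description of the letters and not a bound site. The upstream enhancer known to drive Ucp1 in brown fat lies outside this window.

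Ucp1 was low on every cinacalcet array. Its level was -0.93, 0.54, 0.43 and 3.57 on control arrays 1 to 4, and -5.36, -3.92, -5.66 and -4.38 on cinacalcet arrays 1 to 4. As processed intensity this was 135, 322, 304 and 2410 in controls and 6.08, 15.8, 5 and 11.2 with cinacalcet. The groups did not overlap, and even the lowest control, control 1, stood above the highest cinacalcet array, cinacalcet 2. The probe was well above background on 4 of 4 control arrays but on only 2 of 4 cinacalcet arrays, numbers 2 and 4.

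The mean Ucp1 level was 0.90 ± 1.90 (SD, n = 4) in controls and -4.83 ± 0.81 (SD, n = 4) with cinacalcet. The difference was -5.73 on the log2 scale with a standard error of 1.03, which is 53.1-fold lower. Setting the undetected arrays 1 and 3 to their detection floor, a choice made after seeing the data, gave -5.22, or 37.4-fold lower. With normexp background correction, which adds an offset and compresses dim probes, the difference was -3.02, or 8.10-fold lower, and the groups still did not overlap. Non-overlapping groups with lower cinacalcet values were found for 9.8% of the 14209 tested genes, or 17.8% counting either direction, and since Ucp1 was chosen for this contrast nothing is read from that share.

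Cidea, which encodes a lipid droplet protein enriched in brown adipocytes, separated the groups less. Its level was 3.26, 2.79, 2.38 and 4.39 on control arrays 1 to 4, and 0.26, 3.06, -1.82 and 2.26 on cinacalcet arrays 1 to 4. The groups overlapped, because cinacalcet 2 exceeded controls 2 and 3, while cinacalcet 3 was the lowest array. The mean was 3.21 ± 0.87 (SD, n = 4) in controls and 0.94 ± 2.19 (SD, n = 4) with cinacalcet, a difference of -2.27 with a standard error of 1.18, and of -1.35 without cinacalcet 3. Unlike Ucp1, Cidea was well above background on 8 of 8 arrays.

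**Figure D1:**
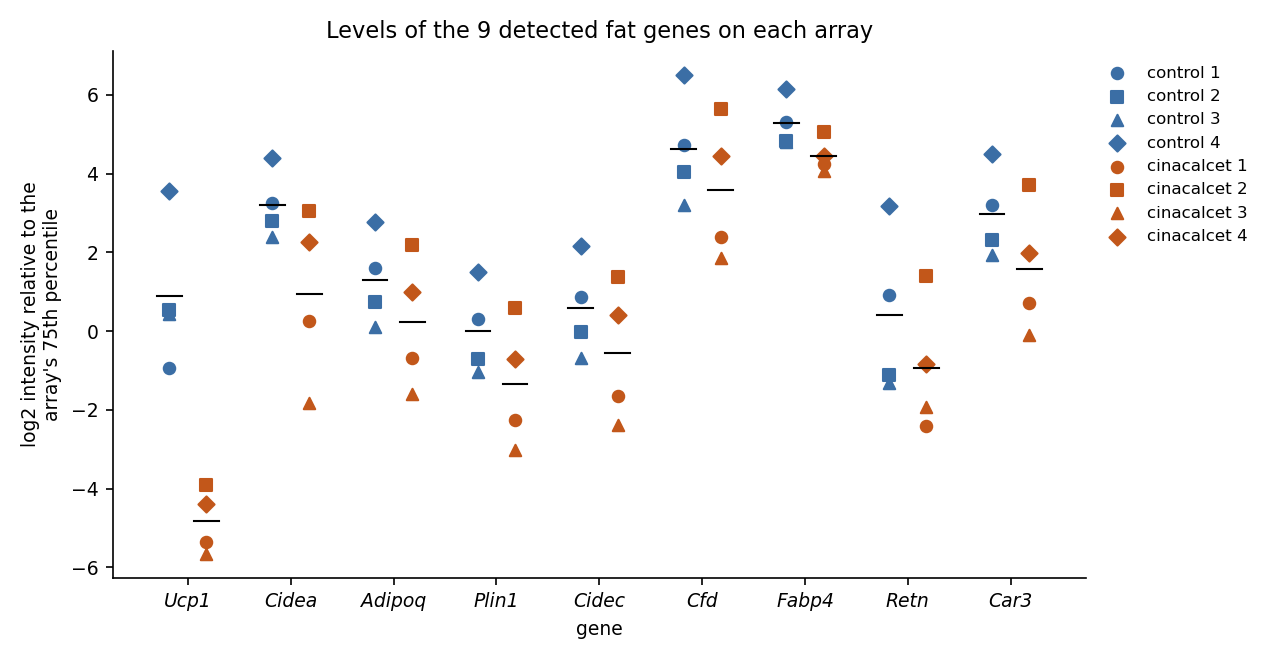
Level of each detected fat gene on each array (y axis, log2 intensity relative to the array's 75th percentile) for controls in blue and cinacalcet in orange, with the array number given by the marker and the group mean by a black line, n = 4 per group. The Ucp1 groups do not overlap, with controls from -0.93 to 3.57 and cinacalcet from -5.66 to -3.92, while the groups of the other 8 genes overlap.

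The hormone genes of fat varied widely within each group. Adipoq, which encodes adiponectin, had levels of 1.61, 0.73, 0.11 and 2.77 on control arrays 1 to 4 and of -0.68, 2.18, -1.61 and 0.99 on cinacalcet arrays 1 to 4. Control 4 was highest and cinacalcet 2 next, and the groups overlapped. The difference of the means was -1.08 with a standard error of 1.02.

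Retn, which encodes resistin, had levels of 0.92, -1.11, -1.32 and 3.18 in controls 1 to 4 and of -2.40, 1.39, -1.92 and -0.83 with cinacalcet 1 to 4. Control 4 and cinacalcet 2 again stood highest, each above every remaining array. The difference was -1.36 with a standard error of 1.35, and the second Retn probe gave -1.35. Cfd, which encodes adipsin, a serine protease of the complement system secreted by fat cells, had levels of 4.72, 4.04, 3.20 and 6.51 in controls 1 to 4 and of 2.39, 5.64, 1.85 and 4.44 with cinacalcet 1 to 4. Its difference was -1.04 with a standard error of 1.13, and cinacalcet 2 exceeded controls 1, 2 and 3. Lep, which encodes leptin, was not well above background on any of the 8 arrays and has no fold.

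The lipid droplet genes followed the same order of arrays. Plin1, which encodes perilipin, the coat of the fat cell's droplet, had levels of 0.30, -0.71, -1.04 and 1.49 in controls 1 to 4 and of -2.26, 0.59, -3.01 and -0.70 with cinacalcet 1 to 4. Cidec, a relative of Cidea that promotes growth of large droplets, had levels of 0.87, -0.03, -0.67 and 2.17 in controls 1 to 4 and of -1.64, 1.37, -2.40 and 0.40 with cinacalcet 1 to 4. In both genes cinacalcet 2 lay above controls 1, 2 and 3, and the groups overlapped. The differences were -1.35 with a standard error of 0.99 for Plin1 and -1.15 with a standard error of 1.07 for Cidec, whose second probe gave -1.25 and was above background on 7 of 8 arrays.

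Among the enzymes and carriers, Car3, a carbonic anhydrase abundant in fat and muscle, had levels of 3.20, 2.32, 1.92 and 4.49 in controls 1 to 4 and of 0.72, 3.70, -0.11 and 1.98 with cinacalcet 1 to 4. Its difference was -1.41 with a standard error of 1.01. Fabp4, the fatty acid carrier of adipocytes that endothelial cells and macrophages also make, had levels of 5.31, 4.83, 4.79 and 6.15 in controls 1 to 4 and of 4.25, 5.06, 4.07 and 4.45 with cinacalcet 1 to 4. Fabp4 varied least, over a range of 2.08 across the 8 arrays against 4.38 to 5.58 for the other 6 detected general adipose genes. Its difference was -0.81 with a standard error of 0.38, and cinacalcet 2 exceeded controls 2 and 3.

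The 7 detected general adipose genes moved together from array to array. Control 4 was the highest array for 7 of 7 of them, cinacalcet 2 the second highest for 6, and cinacalcet 3 the lowest for 6, with cinacalcet 1 lowest for Retn. Pearson's r between pairs of these genes over the 8 arrays was 0.88 to 1.00, with a median of 0.94 over 21 pairs, a description over arrays that share slide and scan. The mean of their deviations from each gene's own average was 0.83, -0.15, -0.58 and 2.24 on control arrays 1 to 4 and -1.53, 1.26, -2.03 and -0.05 on cinacalcet arrays 1 to 4. The groups overlapped widely, and the difference was -1.17 with a standard error of 0.97, or -0.62 without control 4 and -1.79 without cinacalcet 2.

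Set against this mean, Cidea tracked the general adipose genes and Ucp1 tracked them less. Over the 8 arrays r with the mean was 0.91 for Cidea and 0.65 for Ucp1. Cidea minus the general adipose mean was 0.36, 0.86, 0.89 and 0.08 in controls 1 to 4 and -0.28, -0.28, -1.87 and 0.24 with cinacalcet 1 to 4. The groups overlapped through cinacalcet 4 and control 4, and the difference was -1.10 with a standard error of 0.50, which was -1.95 within slide row 1 and -0.24 within slide row 2. Cinacalcet 3 lay apart from the other cinacalcet arrays in this measure, and without it the difference was -0.66.

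**Figure D2:**
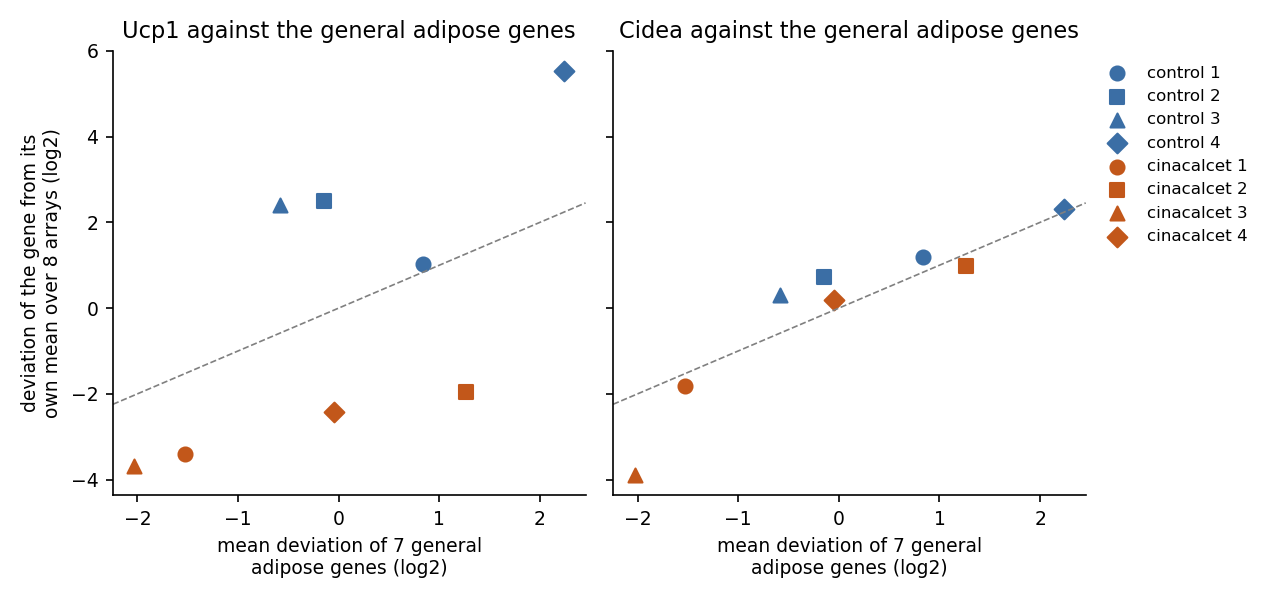
Deviation of Ucp1 (left) and Cidea (right) from its own mean over 8 arrays (y axis, log2) against the mean deviation of the 7 detected general adipose genes (x axis, log2), 1 point per array, with the dashed line where both deviations are equal. Cidea lies near the line on most arrays, with cinacalcet 3 below it, whereas for Ucp1 the cinacalcet arrays lie 1.66 to 3.22 below the line and the controls 0.20 to 3.29 above it.

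Ucp1 minus the general adipose mean was 0.20, 2.65, 2.98 and 3.29 in controls 1 to 4 and -1.87, -3.22, -1.66 and -2.37 with cinacalcet 1 to 4. The groups did not overlap, with control 1 the nearest to the cinacalcet arrays. The difference was -4.56 with a standard error of 0.79, or 23.6-fold lower relative to general adipose RNA of the same array. With Ucp1 at the detection floor on cinacalcet 1 and 3 it was -4.05, or 16.6-fold lower, and the lowest control stood at -0.059 against -0.64 for the highest cinacalcet array. With normexp correction it was -2.09, or 4.25-fold lower, and there the groups overlapped, since the lowest control stood at -0.68 and the highest cinacalcet array at -0.01. A ratio within an array shows unequal change only, not that the general adipose genes stayed the same.

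The arrays can also be compared in pairs, of which there are 16, each reusing the same 8 arrays. In 5 of the 16 pairs the general adipose mean was higher on the cinacalcet array. In all 5 Ucp1 was lower there, by 7.94-fold to 30.4-fold. Since the Ucp1 groups did not overlap, Ucp1 had to be lower in every pair, so only the sizes are described. Cinacalcet 2 against control 3 was the pair with the largest excess of fat RNA: 7 of 7 general adipose genes were higher on cinacalcet 2, by 3.60-fold on average, and Ucp1 was 20.4-fold lower. Cidea in that pair was higher on cinacalcet 2, by 0.67 on the log2 scale. Cidea was lower on the cinacalcet array in 3 of the 5 pairs, and Ucp1 was lower in 16 of the 16.

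Each general adipose gene was also set against the mean of the other 6. Plin1 stayed within -0.37 and 0.25 of that mean over the 8 arrays and Car3 within -0.41 and 0.27, with overlapping groups in both. Retn spread from -0.82 in control 2 to 1.40 in control 4, and Fabp4 from -1.25 in cinacalcet 2 to 1.44 in cinacalcet 3. The range over 8 arrays was 6.51 for Ucp1 minus the general mean, 2.76 for Cidea, and at most 2.68 for a general adipose gene, reached by Fabp4.

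**Figure D3:**
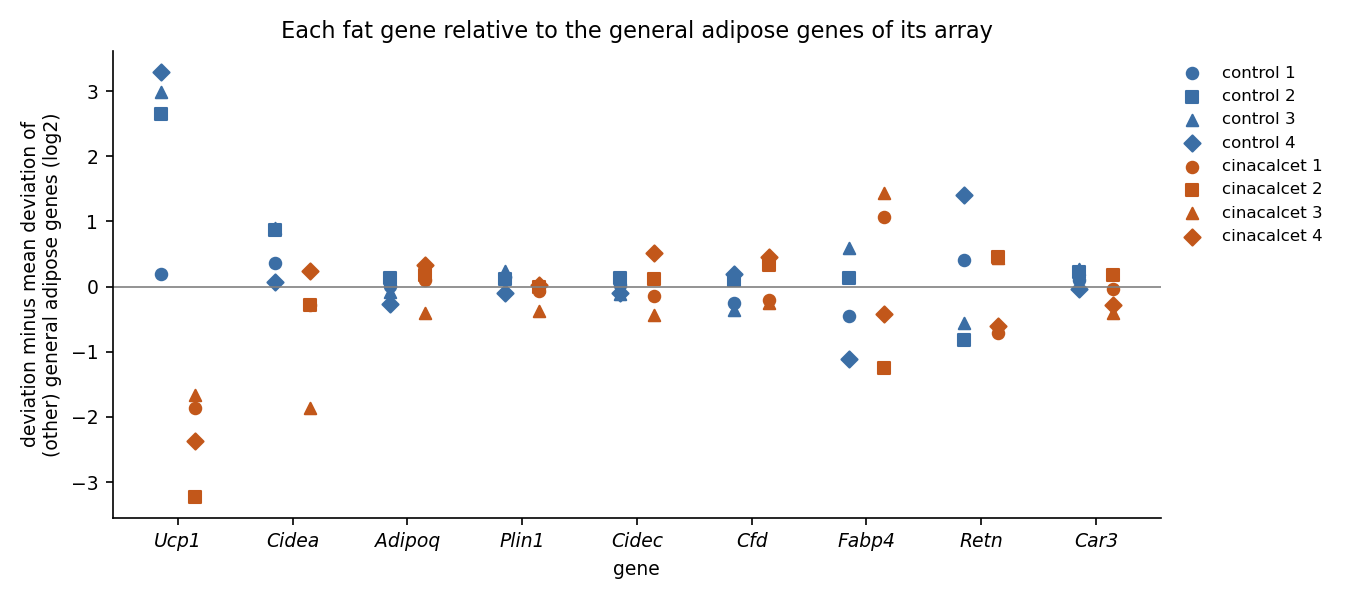
Each gene's deviation on an array minus the mean deviation of the general adipose genes of that array, leaving the gene itself out (y axis, log2), for controls in blue and cinacalcet in orange with markers for array number. The groups separate for Ucp1, with controls at 0.20 to 3.29 and cinacalcet at -3.22 to -1.66, and overlap for the other 8 genes.

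The Ucp1 difference was also taken within each set of arrays that the files distinguish. Its sign was fixed in every set, because the Ucp1 groups did not overlap, so only the sizes are described. On the 5 arrays with Y-linked signal, 3 control and 2 cinacalcet, it was -4.88, and relative to general adipose genes -4.06. On the 3 arrays without it, 1 control and 2 cinacalcet, the same values were -8.36 and -5.73. Within slide row 1 they were -5.99 and -4.58, and within slide row 2 -5.47 and -4.54, with 2 arrays of each group per row. Without control 4 they were -4.84 and -4.22. Each of these sets holds cinacalcet 1 or 3, where Ucp1 was undetected, except slide row 2. With those arrays at the detection floor the values were -4.50 and -3.68 with Y-linked signal, -7.72 and -5.10 without it, -4.98 and -3.56 within slide row 1, and -4.34 and -3.71 without control 4. On the arrays with Y-linked signal the difference was -1.55 for Cidea and -0.82 for the general adipose mean. On the arrays without Y-linked signal it was -3.77 for Cidea and -2.62 for the general adipose mean.

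The remaining genes of brown fat and thermogenesis were tested across all 14209 genes with limma, at a Benjamini-Hochberg adjusted p under 0.05. Of 33 listed genes 25 were above background on enough arrays to be tested, 3 fell, 0 rose and 22 did not pass, with a median log2 fold change of -0.15 against -0.03 over all genes. Across all genes 4.64% fell and 3.37% rose, 8.02% together. The list had 7 genes at an unadjusted p under 0.05, 2 of them higher. The share of all tested genes at that unadjusted level is not given, so nothing is read from such counts in any list. Otop1, a proton channel found in brown fat, fell by 1.19 (standard error 0.17, adjusted p = 0.0113, limma, n = 4 per group), and its other kept probe gave -2.02. Its levels of -3.21 to -3.04 in controls and down to -4.82 with cinacalcet lie near the detection floor, and with normexp correction the value was -0.36 (adjusted p = 0.0159). S100b, a calcium-binding protein that brown adipocytes release to support nerve growth and that glia make abundantly, fell by 1.82 (standard error 0.41, adjusted p = 0.0376, limma), and with normexp correction it was at -0.62 (adjusted p = 0.0390). It was above background on 6 of 8 arrays, and its cinacalcet levels of -4.40 to -3.46 reach the detection floor. Fabp3, the fatty acid carrier of heart and muscle that brown fat also uses, fell by 0.28 (adjusted p = 0.0443, limma).

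The count of 3 became 1 without control 1, control 3 or cinacalcet 2, 3 or 4, and 5 without control 4. The Otop1 call held when each array was left out in turn, with adjusted p-values up to 0.0394. S100b lost its call without any array except controls 2 and 4, with adjusted p-values up to 0.103, and Fabp3 lost it without any array except control 4, up to 0.125. With quantile scaling Fabp3 changed by -0.23 with an adjusted p of 0.102.

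Of the 22 brown fat genes that did not pass, 4 had an unadjusted p under 0.05. Cox7a1, a cytochrome oxidase subunit of brown fat, heart and muscle, had levels of 5.43, 5.49, 5.44 and 6.17 in controls 1 to 4 and of 4.94, 5.39, 5.12 and 4.82 with cinacalcet 1 to 4. Its groups did not overlap, and its fold change was -0.56 (adjusted p = 0.110, limma). Nrg4, a growth factor secreted by brown fat, stood at -1.03 (adjusted p = 0.133, limma), Slc27a1, a fatty acid transporter, at 0.71 (adjusted p = 0.0834, limma) and Gk, glycerol kinase, at 0.26 (adjusted p = 0.0889, limma).

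Other listed genes gave little or no signal. Elovl3, an elongase of brown fat, Lhx8, Epsti1, Bmp8b and Fgf21 were not well above background on any array, and Dio2, the deiodinase that activates thyroid hormone in brown fat, only on 2. Slc36a2, an amino acid transporter used as a surface marker of brown fat, had levels of -1.33, -1.67, -2.65 and -0.03 in controls 1 to 4 and of -3.73, -1.17, -4.96 and -2.55 with cinacalcet 1 to 4. Its groups overlapped, its fold change of -1.68 did not pass (adjusted p = 0.231, limma), and its r with the general adipose mean was 0.97. Kcnk3, a potassium channel of brown fat, had an r of 0.97 with that mean and a fold change of -0.45 that did not pass (adjusted p = 0.608, limma).

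Cox8b, a cytochrome oxidase subunit of brown fat and muscle, had levels of 2.78, 2.23, 2.04 and 4.47 in controls 1 to 4 and of -0.72, 3.34, 2.93 and 1.13 with cinacalcet 1 to 4. Its 3 highest arrays were those without Y-linked signal. Ppargc1a, which encodes the coactivator PGC-1alpha and is also made in kidney tubules, changed by 0.06 (adjusted p = 0.758, limma), and Prdm16, which directs brown fat identity, by 0.22 (adjusted p = 0.442, limma).

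The lists for the other functions of adipocytes held few calls. None of 7 lipolysis genes passed in limma, with 1 at an unadjusted p under 0.05 and a median fold change of 0.20 on the log2 scale. Pnpla2, the triglyceride lipase that starts lipolysis, was nearest at 0.49 (adjusted p = 0.0776), followed by its activator Abhd5 at -0.49 (adjusted p = 0.183). None of 16 genes of lipid uptake and synthesis passed in limma either, with 4 at an unadjusted p under 0.05 and a median of -0.16. Agpat2, an enzyme of triglyceride assembly, stood at -0.33 (adjusted p = 0.0715) and Me1, malic enzyme, at -0.998 (adjusted p = 0.0854). Many of these genes are also made in kidney tubules.

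Of 15 genes for adipocyte identity and secreted products, 13 were tested, 1 rose and 1 fell, with a median of -0.34. In limma 6 were at an unadjusted p under 0.05, 2 of them higher. Retsat, a retinol saturase induced in fat cell differentiation and also present in kidney, rose by 0.83 (standard error 0.13, adjusted p = 0.0133, limma), and kept its call without each array in turn. Cebpa, a transcription factor of fat cell differentiation, fell by 0.67 (adjusted p = 0.0382, limma), and lost the call without any array except control 4 and cinacalcet 1, with adjusted p-values up to 0.100. Adrb3, the beta-adrenergic receptor of adipocytes, had levels of -1.28, -2.06, -3.04 and -0.18 in controls 1 to 4 and of -4.44, -1.90, -4.40 and -4.28 with cinacalcet 1 to 4. Without control 4, 7 genes of the 3 adipocyte lists were called in place of 2. On the Adrb3 probe cinacalcet 2 lay among the controls, and the fold change of -2.12 did not pass (adjusted p = 0.114, limma).

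Of the 13 tested identity genes 5 had an r above 0.8 with the general adipose mean, a limit chosen after seeing the values, against 0.739% of all tested genes. They were Pparg, the master regulator of fat cells, Adrb3, Adig, Mrap and Hp. None of these 5 passed the limma test between groups, with 2 at an unadjusted p under 0.05. In a ranking added after seeing the data, the 10 tested genes most like the general adipose mean were Adig, Ifi27l2a, Sh2b2, Nat8l, Kcnk3, Slc36a2, Mrap, Pnpla3, Thrsp and Pcsk6, with r from 0.94 to 0.98 over 8 arrays. Of these 10, 0 passed the limma test between groups, with 0 at an unadjusted p under 0.05. Both sets were picked for likeness to a mean whose groups overlapped widely, so nothing is read from their lack of calls.

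**Figure D4:**
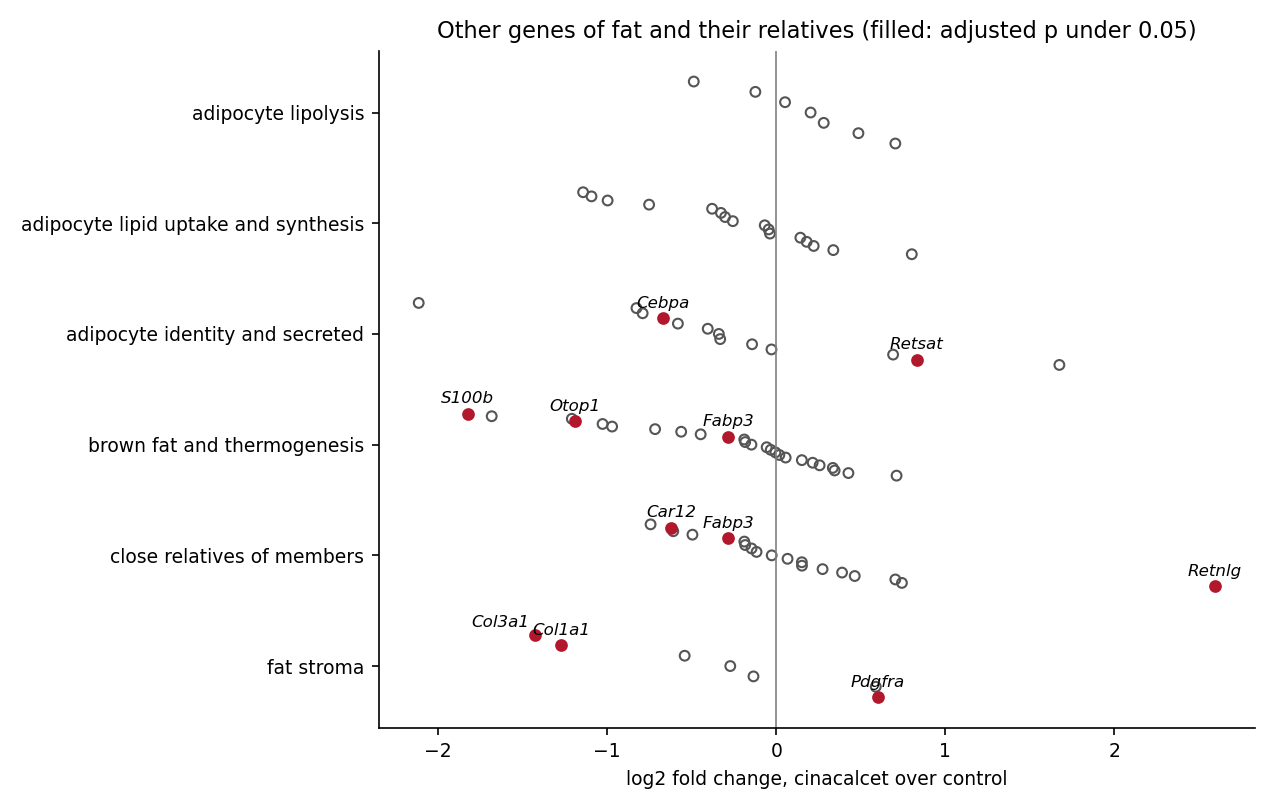
Log2 fold change of cinacalcet over control (x axis) for each tested gene of 6 lists (y axis), with filled points for genes at a limma adjusted p under 0.05 and open points for the rest. Filled points are few in each list, from 0 in both lipid lists to 3 in the brown fat list, the relatives and the fat stroma.

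The nearest relatives of the followed genes were read next, since several have similar sequence or function. Of 21 relatives 19 were tested, 1 rose and 2 fell, with a median of -0.03. In limma 7 were at an unadjusted p under 0.05, 2 of them higher. Ucp2 and Ucp3, the other uncoupling proteins, had fold changes of 0.27 (adjusted p = 0.252, limma) and 0.15 (adjusted p = 0.633, limma), neither of which passed. Retnlg, a resistin-like gene expressed in neutrophils, rose by 2.60 (standard error 0.48, adjusted p = 0.0226, limma), from -5.98 to -3.66 in controls to -2.85 to -2.08 with cinacalcet, and was above background on 5 of 8 arrays. With normexp correction its fold change was 0.49 (adjusted p = 0.0359, limma). Car12, a membrane carbonic anhydrase of kidney tubules, fell by 0.62 (adjusted p = 0.0203, limma), and Fabp3 is counted again here. Car12 and Retnlg each lost the call without control 1, 2 or 3 or cinacalcet 2 or 3, with adjusted p-values up to 0.0679.

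Ranked by Pearson's r with Ucp1 over the 8 arrays, the 10 most similar genes apart from the 10 followed were Ccl4, Lgals1, Cdc42ep2, Asgr2, Tcf15, Cpxm1, Zfp979, Myl9, Dnajc6 and Col1a2, with r from 0.96 to 0.98. Of these, 7 also fell in limma, so the likeness is in part the difference between groups. With each group's mean removed, the 10 most similar were Tdgf1, Crispld2, 1700008J07Rik, Actr3b, Cdc40, Col6a1, Ermap, Pde3a, Cdh13 and Cd22, with r from 0.96 to 0.99, and no gene was in both lists of 10. Neither list holds a gene of the brown fat or adipocyte lists. Of the first list 0 to 6 genes stayed among the 10 when 1 array was left out, with 0 without control 4, and 2 after normexp correction. Of the second list 2 to 7 stayed with 1 array left out and 0 after normexp correction. Fabp4 was the followed gene most like Ucp1, at rank 384 of 14208, and Cidea was at rank 885. With each group's mean removed Fabp4 was at rank 702 and Cidea at rank 1935, the least like Ucp1 of the detected followed genes.

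Markers of other tissues that could be attached to a kidney, or of blood, were read beside these values. Summed levels add each gene's level after undoing the log, so the brightest probe of a list counts most. Of 7 genes of fat stroma 2 fell and 1 rose: Col3a1 fell by 1.43 (adjusted p = 0.0286, limma), Col1a1 fell by 1.27 (adjusted p = 0.0467, limma) and the fibroblast receptor gene Pdgfra rose by 0.60 (adjusted p = 0.0386, limma). The summed stroma level was 21.1 to 31.3 in controls and 26.2 to 35.7 with cinacalcet. It was carried mostly by Dcn, at 3.69 to 4.22 in controls and 4.19 to 4.86 with cinacalcet. The fold change of Dcn, 0.59, did not pass (adjusted p = 0.0674, limma). Each of these 3 calls was lost without controls 1, 2 or 3, cinacalcet 1 or cinacalcet 3, among other arrays, with adjusted p-values up to 0.122.

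Of 5 tested red blood cell genes 4 fell, namely the globin genes Hbb-bt, Hba-a1 and Hbb-bs and the haem synthesis gene Alas2. Hbb-bt fell by 2.53 (standard error 0.38, adjusted p = 0.0128, limma) and kept its call without each array in turn. The other 3 lost theirs without control 1, 2 or 3 or cinacalcet 2, and Hba-a1 and Hbb-bs also without cinacalcet 3, with adjusted p-values up to 0.0691. The summed red blood cell level, carried mostly by Hba-a1, was 509 to 727 in controls and 101 to 321 with cinacalcet, without overlap. The summed brown fat list did not overlap either, at 179.5 to 238.7 in controls and 156.2 to 179.0 with cinacalcet. Nor did the relatives, at 358 to 397 and 312 to 350. The adipocyte identity list was higher with cinacalcet, without overlap, at 79.3 to 104 in controls and 108 to 210. Globin probes of near-identical genes cannot be told apart with certainty.

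Few genes of the other lists were tested or passed. Of 13 skeletal muscle genes 3 were tested and Tnnc2 rose by 0.87 (adjusted p = 0.00898, limma), but by 0.14 with an adjusted p of 0.222 after normexp correction. The defining muscle genes Ckm, Mylpf, Myh4, Myh2, Mb and Casq1 were not above background on any array, Acta1 and Tnnt3 on 1 each, and Myl1 and Myh1 on 3 each. Myl1 ranged from -6.63 on cinacalcet 1 to -2.50 on control 4 and had an r of 0.94 with the general adipose mean. Myh1 stood at -2.65, -2.99 and -3.04 on control 4, cinacalcet 2 and cinacalcet 3, the arrays without Y-linked signal, and at -7.24 to -5.66 on the others. The summed muscle level, carried by Pvalb, which kidney also makes, was 32.2 to 47.3 in controls and 15.9 to 33.7 with cinacalcet. None of 4 tested adrenal genes of 10, 4 lymphoid genes of 7, or 4 mesothelial genes of 5 passed in limma, with 0, 1 and 1 at an unadjusted p under 0.05. Star, the cholesterol carrier of steroid-making cells, stood at 0.36 (adjusted p = 0.247), the T cell genes Cd2 and Cd3e at -0.46 (adjusted p = 0.150) and -0.20 (adjusted p = 0.283). The chromaffin cell gene Pnmt stood at 0.32 (adjusted p = 0.499). The mesothelial list had a median of 0.54, with Msln at 1.24 (adjusted p = 0.0867) and Krt7 at 0.25 (adjusted p = 0.238). Its summed level, carried mostly by Krt7, was 7.53 to 11.3 in controls and 9.62 to 15.0 with cinacalcet. With normexp correction Star was at 0.089, Cd2 at -0.18 and Msln at 0.71. The part of blood, stroma and other attached tissue in the Ucp1 difference was not tested.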

How the data were processed

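The deposited files hold the scanner output of each array as spot intensity on a linear scale. The intensity was background-corrected with Agilent Feature Extraction 11.0.1.1 per the file headers, while the submitters' processing notes name version 9.5. Of 62976 spots per array 59305 were no controls. Outlier spots were set to missing, and 31 probes without a usable spot were dropped. The log2 intensity minus the array's 75th percentile was used, and probes were named by accession through a RefSeq gene table of GRCm38.p6. Because the array was annotated on another build, no probe coordinates are given.

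Tests ran in limma 3.58.1 under R 4.3.3 over 14209 genes, each represented by its brightest probe, which had to exceed background clearly on 4 or more of the 8 arrays, with Benjamini-Hochberg adjustment and no covariates. With 4 arrays a group, precision is limited by array number. The fit was run on simulated data with independent noise for each gene. These lacked the structure shared between the real arrays, so the check cannot vouch for the calls made here. The 10 genes and all lists were chosen with earlier results of these data known. The text names all 10 followed genes. From each list it names the called genes, at most 4 by lowest p, and where there were no called genes the leading 2. It also names the 10 genes most like Ucp1 with and without group means. Further genes of the lists (among them Slc36a2, Kcnk3, Cox8b, Cox7a1, Nrg4, Adrb3 and Ucp2) were picked after their values were seen. Alternatives were other scalings, background correction, filters, blocks and leaving out arrays. The main fit did not pair samples by replicate number, and whether the numbers mark pairs was not settled.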

Additional observations from a re-analysis of the deposited data

How the results depend on the processing

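The Ucp1 difference and its difference relative to the general adipose genes kept their sign under every alternative run. The groups did not overlap in either measure on the main scaling, so leaving out or splitting arrays could not change these signs. Leaving out 1 array at a time gave -6.34 to -4.84 for Ucp1 and -5.25 to -4.22 for Ucp1 relative to the general adipose genes. The same gave -2.97 to -1.35 for Cidea and -1.79 to -0.62 for the general adipose mean. With normexp correction the Ucp1 values were -3.02 and -2.09, respectively. That run used median spot signals in place of processed intensity and added an offset of 50, and their separate parts were not tested. Ucp1 had no value when probes had to be above background on all 8 arrays.

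Counts of called genes depended far more on the choices. In limma 1139 genes were called in all, 2 in the adipocyte lists and 3 in the brown fat list. Leaving out 1 array gave 219 to 3359 in all, 1 to 7 adipocyte and 1 to 5 brown fat genes, with the highest counts without control 4, and the total moved by over 1.5 times without each array except cinacalcet 1. No filter on dim probes gave 367, 1 and 1, and requiring all 8 arrays gave 1 brown fat gene. A block for Y-linked signal gave 2417, 8 and 8. Slide row 1 alone gave 1, 0 and 0, and slide row 2 alone 0, 0 and 0, where 4 arrays each left 3859 and 1068 genes below an unadjusted p of 0.05. The replicate block gave 0, 0 and 0 in limma, with 2869 genes at an unadjusted p under 0.05. Correlations of deviations between same-numbered arrays were 0.34, -0.54, -0.36 and -0.56. Over all pairs of arrays the sign followed Y-linked signal, as with 0.70 for control 4 and cinacalcet 2, both without it. The check therefore cannot decide whether the numbers pair the samples. The adrenal gene Pnmt was at -0.058 with normexp correction against 0.32, neither past the threshold. The cause of these shifts was not tested. Signals near the detection floor limit Ucp1 with cinacalcet, Otop1, S100b, Tnnc2 and Retnlg.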
